A study of Drosophila melanogaster with 18 samples.

Results

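The transcripts described here came from 3 chromatin genes of Drosophila melanogaster, kis (FBtr0078144), HDAC3 (FBtr0078767) and SuUR (FBtr0076203). They are 3 of the 16637 transcripts in the table and were found there by their row identifiers, as a set picked with earlier results of these data known. The identifiers were paired with gene symbols through the synonyms of the RefSeq gene table (Release 6 assembly), where 16 transcripts matched 1 symbol, 28 matched several and 16593 matched none. The gene kis has several transcripts, and only the row named above is reported.

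The gene kis (kismet) encodes a trithorax-group chromatin remodeller of the CHD family, an ATPase associated with active transcription that works against Polycomb repression. HDAC3 encodes a histone deacetylase, the catalytic subunit of the SMRTER corepressor complex, which takes acetyl groups off histones at genes being repressed. SuUR (Suppressor of Underreplication) encodes a protein of late-replicating heterochromatin that slows replication forks, so that polytene chromosomes lacking it replicate these regions more fully. The proteins depleted in the study act at chromatin insulators, the elements that separate neighbouring regulatory domains: BEAF, CTCF and SuHw recognise DNA sequences, and CP190 is recruited to all of them as a partner.

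RNA was measured in Kc cells, a line of embryonic origin, on 18 NimbleGen arrays with 1 colour (Cy3). All cells had received double-stranded RNA on each of 3 days and were collected on day 4, and the control cells received double-stranded RNA against beta-galactosidase. The other groups were single knockdowns of BEAF, CP190, CTCF or SuHw and double knockdowns of BEAF+CP190, BEAF+CTCF, CTCF+CP190 or SuHw+CP190, giving 9 groups. Each had 2 arrays, from independent experiments on 1 cell line. Values are log2 signals, so that a difference of 1 is a doubling of signal. RNA was taken from whole cultures, so less RNA per cell and fewer cells expressing a gene cannot be told apart.

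The arrays formed 2 sets, which follow the way the cell line is written in the labels. The first set held control, BEAF and CP190 (6 arrays) and the second set the other 6 groups (12 arrays). Arrays of different sets correlated across transcripts at 0.978 to 0.990 (median 0.986), below replicate arrays at 0.998 to 0.999. Arrays of different groups in 1 set correlated at 0.989 to 0.998 (median 0.995), a range whose low end met that of different sets. By the test used below, 70.5% of transcripts differed between the sets. The median log2 signal of an array lay between 9.27 and 9.33. Because each group lies in 1 set, set and knockdown cannot be told apart in a comparison of CTCF, SuHw or any double knockdown with control, and those comparisons are given last. The 4 depleted genes had no named row, so the depth of each knockdown was not analysed here. Of 9 marker genes of Kc cells, LanA alone, which encodes a laminin subunit, had a named row, with group means between 14.27 and 14.45 and the highest after BEAF knockdown.

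All 3 transcripts were measured far from the low end of the signal. The control arrays put kis above 81.6% of all transcripts in both arrays, HDAC3 above 77.7% and 77.1%, and SuUR above 69.6% and 70.4%. Their spread between replicates was small, with a pooled SD over the 9 groups of 0.051 for kis, 0.055 for HDAC3 and 0.066 for SuUR on the log2 scale, where the median over all transcripts was 0.088. Levels of different genes are not set against each other, since they come from different probes.

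**Figure D1:**
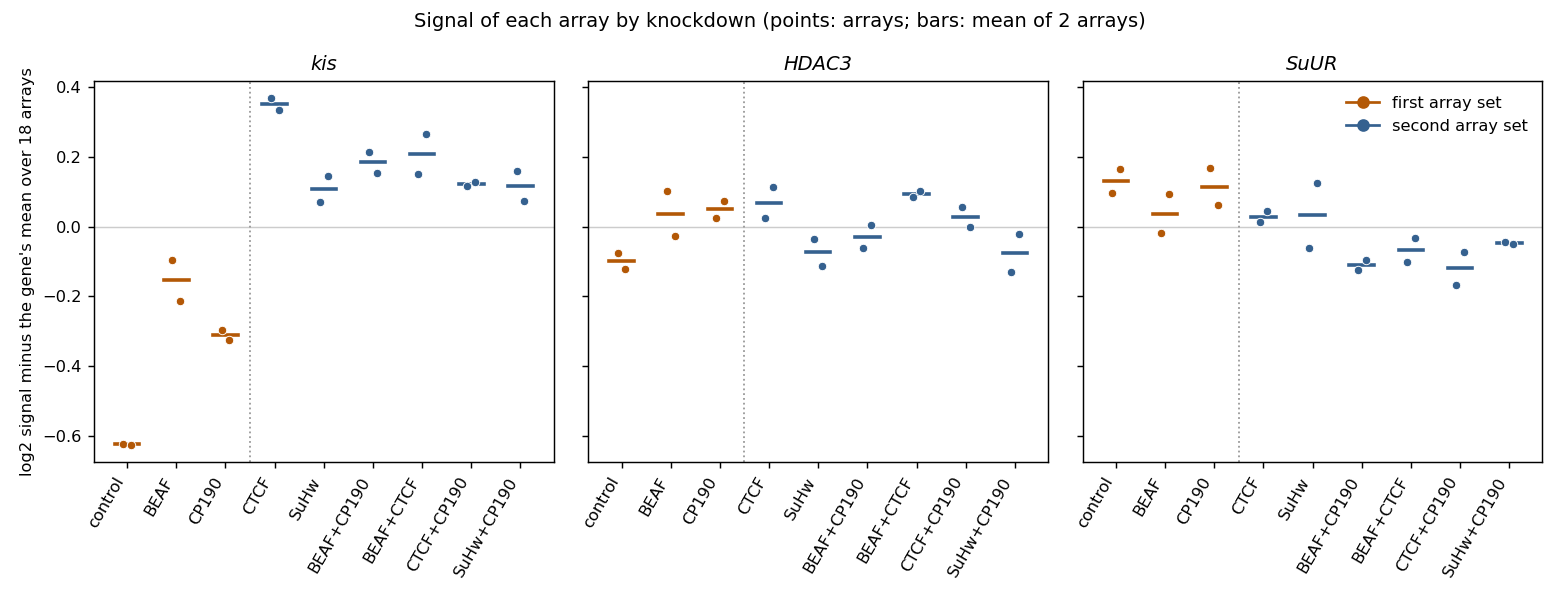
Log2 signal of kis, HDAC3 and SuUR on each of the 18 arrays, with each gene's own mean over all arrays taken off. Points are arrays and bars are means of 2 arrays; the dotted line separates the first set (orange) from the second (blue). The kis points of the control group lie below all others, and all 12 kis points of the second set lie above the 6 of the first.

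The remodeller gene kis had its lowest signal in control cells and rose after knockdown of either protein of the first set. Its log2 signal was 12.19 on both control arrays. It was 12.72 and 12.61 after BEAF knockdown. It was 12.52 and 12.49 after CP190 knockdown. Both knockdowns thus lay above control with no overlap, an order that 41.8% of all transcripts had for BEAF and 34.6% for CP190. The BEAF arrays also lay above the CP190 arrays.

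The rise of kis was 1.39-fold after BEAF knockdown, a log2 difference of 0.47 (SE 0.06, adjusted p = 6.3e-05 in limma, Benjamini-Hochberg over all transcripts). It was 1.24-fold after CP190 knockdown, or 0.31 (SE 0.06, limma, adjusted p = 0.0015). The test called 21.7% of all transcripts higher after BEAF knockdown, or 41.7% in either direction. After CP190 knockdown it called 15.5% higher and 35% in either direction, so a call by itself is common in these comparisons. The difference between the BEAF and CP190 arrays, 0.16 with a 95% interval of 0.026 to 0.29, did not pass after adjustment (limma, adjusted p = 0.12). It was 0.098 without BEAF replicate 1 and 0.22 without BEAF replicate 2. An order of arrays like that of kis, with BEAF wholly above CP190, occurred in 32.3% of all transcripts, and 10.8% were called in either direction.

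Against transcripts of like signal the kis rise lay high, beyond their 95th percentile after BEAF knockdown and under it after CP190 knockdown. The 500 transcripts nearest to kis in control signal, from 12.10 to 12.31, had a median log2 change after BEAF knockdown near 0 and a range from the 5th to the 95th percentile of -0.50 to 0.39. The kis change exceeded those of 97.2% of them. After CP190 knockdown the range was -0.43 to 0.35 and kis exceeded 93.2%. These are descriptions of rank, with no test. The Kc-cell marker LanA also rose after BEAF knockdown, from 14.28 ± 0.0026 to 14.45 ± 0.064 (SD, n = 2 each), a log2 difference of 0.17 (SE 0.053, limma, adjusted p = 0.021), and was 0.093 above control after CP190 knockdown, which did not pass (adjusted p = 0.20). Its part in the kis result was not tested.

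No difference of HDAC3 between groups of the first set passed. Its log2 signal was 11.93 and 11.89 in control, 12.11 and 11.98 after BEAF knockdown, and 12.03 and 12.08 after CP190 knockdown. All 4 knockdown arrays lay above both control arrays, an order of arrays that 41.8% of all transcripts also had for BEAF and 34.6% for CP190. The differences from control were 0.14 for BEAF (95% interval 1.3e-05 to 0.27, limma, adjusted p = 0.1) and 0.15 for CP190 (95% interval 0.013 to 0.29, limma, adjusted p = 0.083), and neither passed. Both passed narrowly when each array was centred on its median, at 0.17 and 0.18 (adjusted p = 0.0493 and 0.0495). The BEAF difference depended on single arrays, at 0.072 (adjusted p = 0.50) without BEAF replicate 1 and at 0.20 (adjusted p = 0.047) without BEAF replicate 2. HDAC3 exceeded 71.0% and 77.8% of the 500 transcripts of like control signal in the respective changes, which places it inside their usual range.

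SuUR showed no difference that passed within the first set. Its log2 signal was 11.34 and 11.40 in control, 11.22 and 11.33 after BEAF knockdown, and 11.41 and 11.30 after CP190 knockdown. The BEAF arrays lay just below both control arrays, as in 33.4% of all transcripts, and the CP190 arrays lay on either side of them. The differences from control were -0.095 for BEAF (95% interval -0.25 to 0.057) and -0.016 for CP190 (95% interval -0.17 to 0.14), and neither passed (limma, adjusted p = 0.30 and 0.88). A test for any difference among the 3 first-set groups gave adjusted p = 0.00015 for kis, 0.11 for HDAC3 and 0.47 for SuUR (limma F test, Benjamini-Hochberg), where 45.6% of all transcripts passed.

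**Figure D2:**
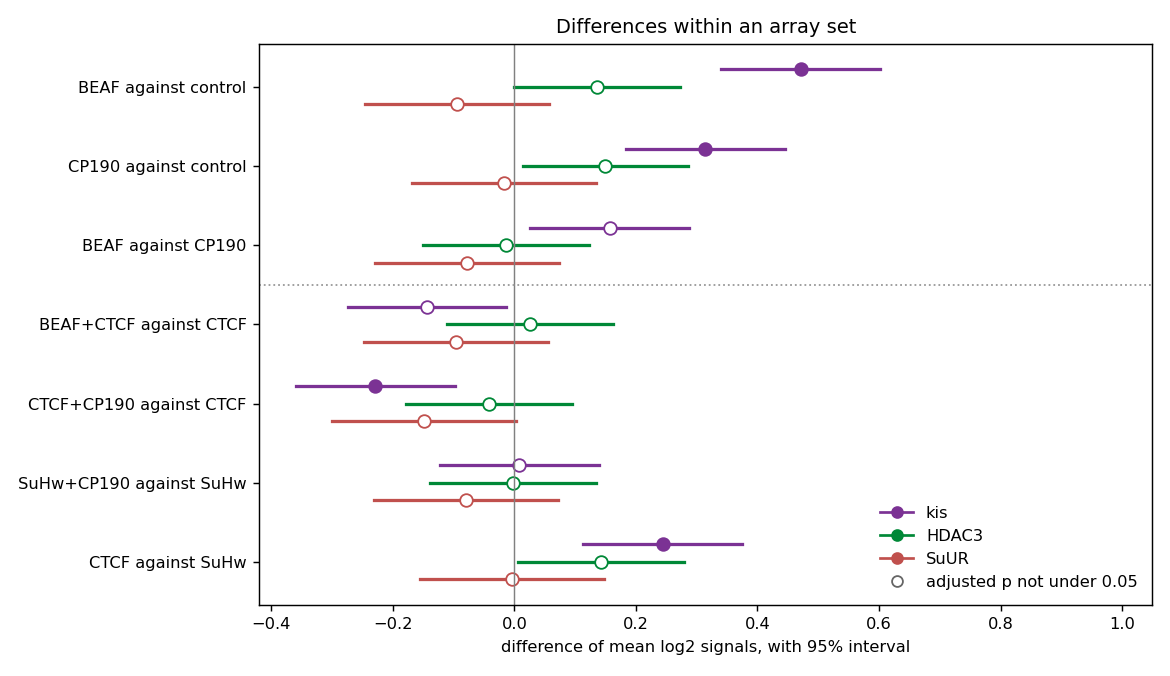
Differences of mean log2 signal between groups of 1 array set for kis, HDAC3 and SuUR, with 95% intervals from the limma fit. Filled points passed at an adjusted p under 0.05; the 4 filled points all belong to kis, at 0.47, 0.31, -0.23 and 0.24.

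In the second set kis was highest with CTCF knockdown alone. Its log2 signal there was 13.19 and 13.15, above all 10 other arrays of that set. The share of transcripts with that order was not analysed here. The SuHw arrays were at 12.89 and 12.96, and CTCF+CP190 arrays at 12.94 and 12.95. The CTCF level exceeded the SuHw level by 0.24 (SE 0.06, limma, adjusted p = 0.015), a comparison in which 9.12% of transcripts were called higher and 16.8% in either direction. The arrays of these groups lay apart in this order in 33.6% of transcripts.

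Adding a CP190 knockdown to CTCF took kis to 0.853 of the CTCF signal (log2 difference -0.23, SE 0.06, limma, adjusted p = 0.015). In that comparison 11.8% of transcripts fell and 24.4% were called in either direction, and 33.6% had both CTCF+CP190 arrays below the CTCF arrays. This call and that of CTCF against SuHw depended on single arrays. Without any 1 of the 4 arrays the first had an adjusted p of 0.055 to 0.096, at -0.21 to -0.25. Without CTCF replicate 1, CTCF replicate 2 or SuHw replicate 1 the second had 0.096, 0.062 and 0.062, at 0.23, 0.26 and 0.21, while a fit of these groups alone gave 0.11.

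Adding BEAF knockdown to CTCF gave kis signals of 12.97 and 13.08, below both CTCF arrays. The difference of -0.14 (95% interval -0.27 to -0.013) did not pass (limma, adjusted p = 0.11), where 21.9% of transcripts passed in either direction and 33.1% had arrays in this order. It was -0.087 without BEAF+CTCF replicate 1 and -0.20 without BEAF+CTCF replicate 2. Adding CP190 knockdown to SuHw gave 12.98 and 12.89, which overlapped the SuHw arrays, with a difference of 0.008 (95% interval -0.12 to 0.14), where 28.4% of transcripts passed. BEAF+CP190 arrays were at 13.03 and 12.97. None of the 6 comparisons of a double knockdown with another double passed for kis, and their differences lay between -0.023 and 0.092. The share of all transcripts that passed was 12.2% for BEAF+CTCF against CTCF+CP190, 5.36% for CTCF+CP190 against SuHw+CP190 and 10.8% for BEAF+CP190 against BEAF+CTCF. It was 5.09% for BEAF+CP190 against CTCF+CP190, 7.69% for BEAF+CP190 against SuHw+CP190 and 19.6% for BEAF+CTCF against SuHw+CP190.

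The signal of kis was also averaged over the second-set arrays with and without each protein's knockdown, comparisons added after the data were examined. All second-set arrays with BEAF or CP190 knockdown were doubles, while the singles lay among those without. The BEAF and CP190 averages therefore mix depletion of the protein with double knockdown. Arrays with SuHw knockdown were at -0.11 against those without (SE 0.037, limma, adjusted p = 0.051), those with CTCF knockdown at 0.092 (adjusted p = 0.082), those with CP190 knockdown at -0.081 (adjusted p = 0.085) and those with BEAF knockdown at 0.022 (adjusted p = 0.72). None passed for kis, where 27.2%, 20.6%, 37.7% and 26.4% of all transcripts did, and the arrays overlapped in each. The SuHw average passed under 6 of 20 other settings, among them arrays centred on their medians (adjusted p = 0.048) and without BEAF+CTCF replicate 1 (0.041), and the CTCF and CP190 averages with trend and robust moderation (0.038 and 0.042).

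The spread of kis over the second set lay near the middle of that of transcripts of like control signal. Its group means there spanned 0.24 on the log2 scale, and 49% of the 500 transcripts of like control signal spanned less. This share was 56% with 100 and 51.7% with 1000 such transcripts. It was 64% among 500 transcripts matched on mean signal over all arrays. In the first set the kis means spanned 0.47, more than in 90.2% of the 500 of like control signal. A test for any difference among the 6 second-set groups passed for kis (limma F test, adjusted p = 0.028), as it did for 48.6% of all transcripts. Without CTCF replicate 1 or CTCF replicate 2 it did not, with adjusted p = 0.17 and 0.11.

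HDAC3 in the second set was higher on arrays with CTCF knockdown than on most without it. Its log2 signal was 12.03 and 12.12 with CTCF, 12.09 and 12.11 with BEAF+CTCF, and 12.06 and 12.01 with CTCF+CP190. It was 11.97 and 11.89 with SuHw, 11.95 and 12.01 with BEAF+CP190, and 11.88 and 11.99 with SuHw+CP190. The lowest array with CTCF knockdown, 12.007, lay just under the highest without it, 12.012, so that the 6 and 6 arrays overlapped by that pair alone.

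No comparison of 2 groups within the second set passed for HDAC3. The widest was BEAF+CTCF over SuHw+CP190, at 0.17 (95% interval 0.034 to 0.31, limma, adjusted p = 0.079, and 0.046 with trend and robust moderation), followed by CTCF over SuHw at 0.14 (adjusted p = 0.14). In the same added averages, arrays with CTCF knockdown exceeded those without by 0.12 (SE 0.036, limma, adjusted p = 0.031) and those with SuHw knockdown were at -0.12 against those without (SE 0.039, adjusted p = 0.042). The shares of all transcripts called are those given for kis. Both averages use the same 12 arrays, and all arrays with SuHw knockdown are among those without CTCF knockdown. Leaving out 1 array kept the CTCF call for 5 of the 12 and the SuHw call for 5 of the 12, with values of 0.11 to 0.14 and -0.089 to -0.14. Both calls were lost without CTCF replicate 2, SuHw replicate 2, either BEAF+CTCF array, CTCF+CP190 replicate 1 or SuHw+CP190 replicate 1, the first also without BEAF+CP190 replicate 1 and the second without BEAF+CP190 replicate 2. The SuHw call was lost as well with a replicate block (adjusted p = 0.052, and 0.055 within each set), with only the groups compared and with quantile normalization (0.053 each), and was made in 9 of 20 settings. The CTCF call was made in 13 of 20. The F test among the 6 groups did not pass for HDAC3 (adjusted p = 0.12).

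Adding CP190 to CTCF or SuHw, or BEAF to CTCF, gave HDAC3 small differences. They were -0.042 (95% interval -0.18 to 0.095), -0.0017 (95% interval -0.14 to 0.13) and 0.026 (95% interval -0.11 to 0.16), and none passed. The HDAC3 group means of the second set spanned 0.17, less than in all but 23.6% of the 500 transcripts of like control signal.

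SuUR in the second set was at 11.25 and 11.28 with CTCF and at 11.18 and 11.36 with SuHw. Its signal was 11.11 and 11.14 with BEAF+CP190 and 11.14 and 11.21 with BEAF+CTCF. It was 11.07 and 11.17 with CTCF+CP190 and 11.19 and 11.19 with SuHw+CP190. All 4 doubles had lower means than both singles, and the share of transcripts with that order was not analysed here. The BEAF+CTCF and CTCF+CP190 arrays lay below the CTCF arrays, as in 33.1% and 33.6% of all transcripts. The lower SuHw array lay among the arrays of the doubles.

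The SuUR differences did not pass in any of the 10 comparisons within the second set. CTCF+CP190 against CTCF had the widest, at -0.15 (95% interval -0.30 to 0.0029, limma, adjusted p = 0.15), followed by BEAF+CTCF against CTCF at -0.095 and SuHw+CP190 against SuHw at -0.079. Arrays with CP190 knockdown were at -0.09 against those without (SE 0.04, limma, adjusted p = 0.1), in the added average, which was -0.12 (adjusted p = 0.022) without SuHw replicate 1 and -0.059 (adjusted p = 0.25) without SuHw replicate 2. This average mixes CP190 depletion with double knockdown, since both singles lie among the arrays without it. The F test gave adjusted p = 0.26. SuUR group means spanned 0.095 in the first set and 0.15 in the second, and 14.2% and 15.2% of the 500 transcripts of like control signal spanned less.

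The change of kis on BEAF or CP190 depletion differed between cells with and without a further knockdown. BEAF depletion gave 0.47 from control and -0.14 from CTCF. The interaction, the double minus both singles plus control, was -0.61 (SE 0.085, limma, adjusted p = 0.00026), where 28.8% of all transcripts had a called interaction and 13.6% a negative one. CP190 depletion gave 0.31 from control and -0.23 from CTCF, with an interaction of -0.54 (SE 0.085, adjusted p = 0.00053), where 27.4% of transcripts were called and 11.6% had a negative one. From SuHw it gave 0.008, with an interaction of -0.31 (SE 0.085, adjusted p = 0.016), where 29.8% were called and 12.7% had a negative one.

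Of the 500 transcripts of like control signal, 0.8% had a lower value than kis in the BEAF+CTCF interaction, 0.8% in that of CTCF+CP190 and 10.6% in that of SuHw+CP190. Any offset common to all second-set arrays drops out of an interaction. The effect with the other knockdown comes from second-set arrays alone, however, and the effect without it from first-set arrays, so an effect that depends on the set and an interaction cannot be told apart. The kis signal was also higher on all 12 arrays of the second set than on any of the first. The SuHw+CP190 interaction did not pass with only the 4 groups in the fit (adjusted p = 0.062), without SuHw replicate 2 (0.051) or without SuHw+CP190 replicate 2 (0.064).

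**Figure D3:**
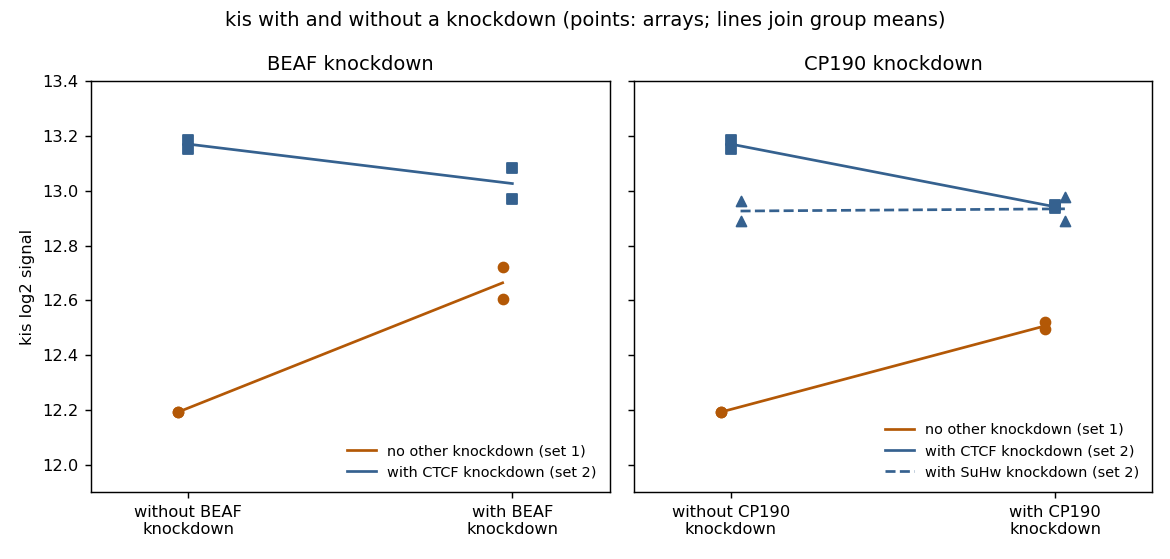
Log2 signal of kis without and with BEAF knockdown (left) and CP190 knockdown (right), in cells with no other knockdown (orange, first set) or with CTCF or SuHw knockdown (blue, second set). Points are arrays and lines join means of 2 arrays. The orange lines rise by 0.47 and 0.31, while the blue lines run at -0.14, -0.23 and 0.008.

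For HDAC3 and SuUR no interaction passed. The HDAC3 interaction was -0.11 (95% interval -0.30 to 0.082) for BEAF+CTCF, -0.19 (95% interval -0.38 to 0.0012) for CTCF+CP190 and -0.15 (95% interval -0.34 to 0.041) for SuHw+CP190. Those of SuUR were -0.00075, -0.13 and -0.063, with intervals that reached down to -0.21, -0.35 and -0.28.

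Against control, across the sets, kis was higher in every group of the second set. The differences were 0.98 with CTCF, 0.73 with SuHw, 0.81 with BEAF+CP190, 0.83 with BEAF+CTCF, 0.75 with CTCF+CP190 and, lowest of the doubles, 0.74 with SuHw+CP190 (SE 0.06 each, limma, adjusted p between 2.7e-08 and 3.7e-07). These correspond to 1.66-fold to 1.97-fold higher signals. In the same order of groups, 29.1%, 29.6%, 30%, 29.3%, 27.4% and 27.3% of all transcripts were called higher, and 54.9%, 58.7%, 55.9%, 54.9%, 52.2% and 53.2% in either direction. All 6 share the same 2 control arrays.

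All kis signals of the second set also stood above those of the first. The mean of the 6 second-set groups exceeded that of the 3 first-set groups by 0.55 for kis (SE 0.03, limma, adjusted p = 2.9e-09), and all 12 arrays lay above all 6, as for 11.8% of transcripts. In this set difference 35.9% of all transcripts were called higher and 70.5% in either direction. BEAF+CP190 exceeded the mean of its own singles by 0.42 (SE 0.052, limma, adjusted p = 1.8e-05). This comparison called 9940 of the 16637 transcripts in either direction. It sets a double in the second set against singles in the first, so set and double knockdown cannot be told apart in it. From control, kis was at 0.47 with BEAF, 0.31 with CP190 and 0.81 with BEAF+CP190 knockdown. With an array set term and a term for each protein in an additive model, the kis differences from control were between 0.10 and 0.33, none passed (adjusted p = 0.32 to 0.80), and the set term was 0.42 (SE 0.15, adjusted p = 0.033). That model assumes that the effects of the proteins add, whereas the 3 kis interactions above passed.

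HDAC3 against control passed across the sets in CTCF (0.17, SE 0.063, limma, adjusted p = 0.037) and BEAF+CTCF (0.19, adjusted p = 0.019) and not in the other 4 groups, which were at 0.024 to 0.13. These comparisons called 29.1% and 29.3% of all transcripts higher and 54.9% each in either direction, and HDAC3 exceeded 67.4% and 71% of its 500 transcripts of like control signal, of which 61.4% and 60.2% were called. Unlike kis, its second-set mean differed from the first by only 0.0063 (95% interval -0.062 to 0.074). In the additive model the same 2 differences were 0.16 and 0.24 and did not pass (adjusted p = 0.23 and 0.18). The CTCF call was also lost without control replicate 1 (0.19), control replicate 2 (0.15) or CTCF replicate 2 (0.12), and the BEAF+CTCF call without control replicate 2 (0.17) or either BEAF+CTCF array (0.20 and 0.19).

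SuUR was lower than control in all 4 double knockdowns, at -0.24 in BEAF+CP190, -0.20 in BEAF+CTCF, -0.25 in CTCF+CP190 and -0.18 in SuHw+CP190 (SE 0.07 each, limma, adjusted p = 0.01, 0.029, 0.0085 and 0.047). In these comparisons 25.9%, 25.5%, 24.8% and 25.9% of all transcripts were called lower. The single knockdowns of the second set, CTCF and SuHw, were at -0.10 and -0.099 and did not pass. The SuHw value depended on single arrays, at -0.0064 (adjusted p = 0.95) without SuHw replicate 1 and at -0.19 (adjusted p = 0.046) without SuHw replicate 2. Every call among the doubles was lost without control replicate 2 (-0.21, -0.16, -0.22 and -0.14) and without replicate 1 of the double (-0.23, -0.16, -0.20 and -0.18). That of SuHw+CP190 was also lost without control replicate 1 (-0.21) and without its own replicate 2 (-0.18). In the additive model the doubles were at -0.11 to -0.18 and none passed (adjusted p = 0.11 to 0.60). The second set as a whole was at -0.14 against the first (SE 0.035, adjusted p = 0.0027), with arrays that overlapped, and in the additive model this call was lost too (-0.086, adjusted p = 0.42). From group means, 34.6% of all transcripts were called lower in the second set and 70.5% in either direction.

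**Figure D4:**
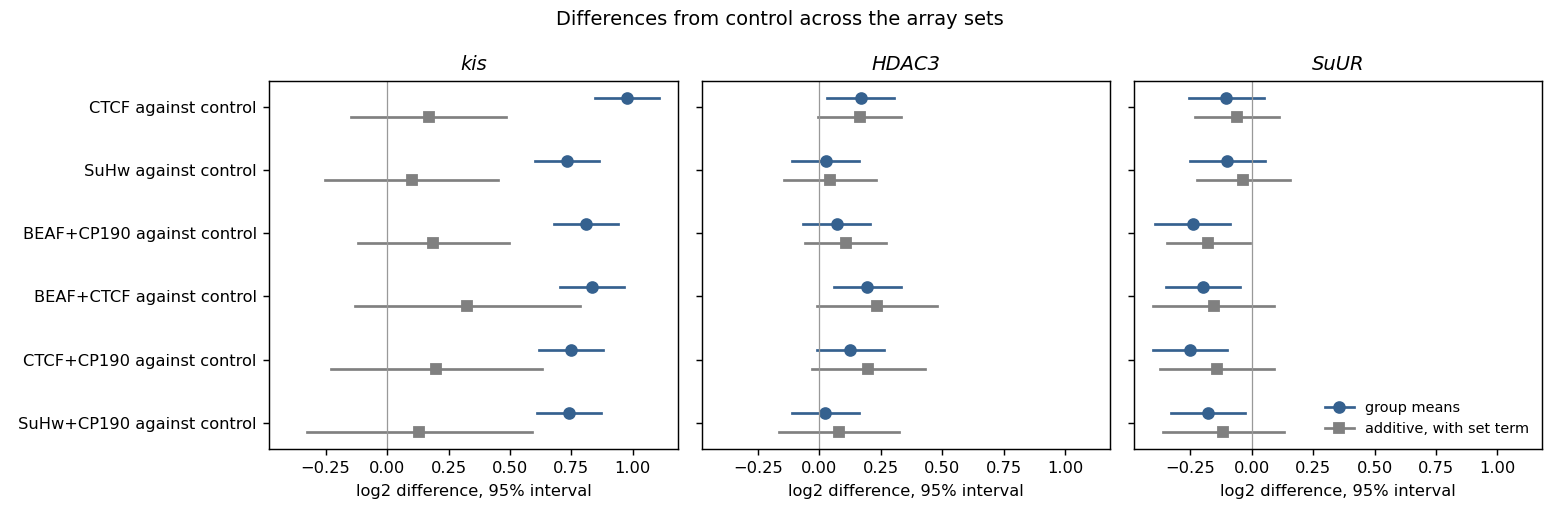
Differences of mean log2 signal from control for the 6 groups of the second set, from group means (blue circles) and from the additive model with an array set term (grey squares), with 95% intervals. The kis values fall from 0.73 to 0.98 down to 0.10 to 0.33 in the additive model, while those of HDAC3 and SuUR move less.

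Seen against transcripts of like control signal, only kis stood near an end in the set difference. It exceeded 98.4% of its 500 transcripts, whose range from the 5th to the 95th percentile was -0.70 to 0.42. HDAC3 exceeded 53.8% and SuUR 33.8% of theirs. For SuUR the largest difference from control, -0.25 in CTCF+CP190, still exceeded 22.8% of the changes of its like transcripts.

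**Figure D5:**
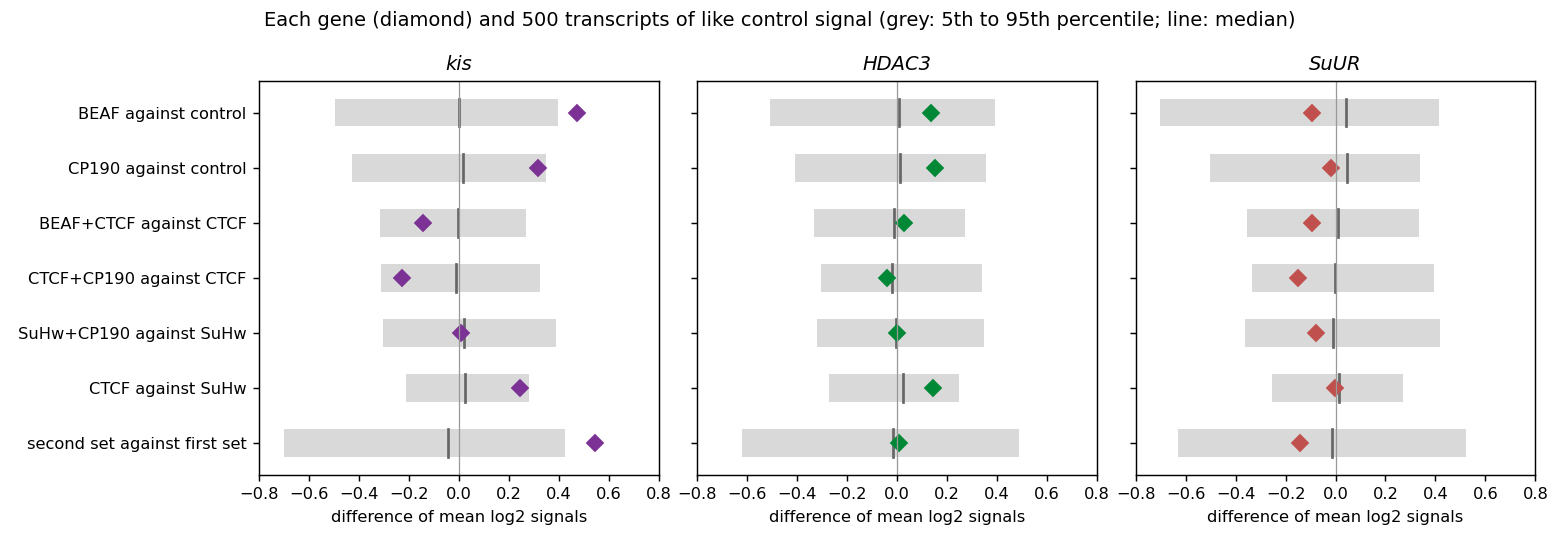
Difference of mean log2 signal of each gene (diamond) in 7 comparisons beside the 500 transcripts nearest in control signal (grey bar, 5th to 95th percentile; line, median). The kis diamonds for BEAF against control (0.47) and for the second set against the first (0.55) lie beyond the grey bars; the HDAC3 and SuUR diamonds lie inside theirs.

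In order of level over the 9 groups, kis ran from control through CP190, BEAF, SuHw, SuHw+CP190, CTCF+CP190, BEAF+CP190 and BEAF+CTCF to CTCF. Neighbours in that order differed beyond their spread between control and CP190 (0.31) and between BEAF and SuHw (0.26, limma, adjusted p = 0.0023), the latter across the sets, and not at the other 6 steps. The pairs of neighbours were picked from the same group means, and the adjusted p does not allow for that choice. From BEAF to SuHw, 27.2% of all transcripts were called higher and 60.2% in either direction. HDAC3 ran from control through SuHw+CP190, SuHw, BEAF+CP190, CTCF+CP190, BEAF, CP190 and CTCF to BEAF+CTCF. SuUR ran from CTCF+CP190 through BEAF+CP190, BEAF+CTCF, SuHw+CP190, CTCF, SuHw, BEAF and CP190 to control. For HDAC3 and SuUR no step between neighbours passed, and all 8 steps were at most 0.056 and 0.078.

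The correlations between the 3 genes differed in sign. Over the 9 group means, which share their arrays, kis correlated with HDAC3 at 0.381 and with SuUR at -0.733, and HDAC3 with SuUR at -0.179. With the mean of each array set taken off, the values were 0.746, -0.155 and -0.229.

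The transcripts most like kis over the 9 group means were FBtr0273320 (Pearson 0.994) and FBtr0085439 (0.990), among 9296 transcripts whose group means spanned at least 0.5. A correlation over 0.9 with kis was common, at 6.24% of them. With the set means taken off, FBtr0273320 (0.974) was again the most like, followed by FBtr0077085 (0.965). FBtr0273320 had a log2 signal of 8.15 ± 0.078 in control, 8.81 ± 0.22 with BEAF, 8.59 ± 0.028 with CP190 and 9.50 ± 0.033 with CTCF knockdown (SD, n = 2 each).

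For HDAC3 the most like were FBtr0114092 (0.960) and FBtr0112984 (0.946), and with the set means taken off FBtr0087409 (0.983) and FBtr0077768 (0.978). FBtr0087409 was at 9.91 ± 0.030 with CTCF and 9.36 ± 0.076 with SuHw knockdown (SD, n = 2 each). For SuUR they were FBtr0073970 (0.976) and FBtr0114096 (0.958), and with the set means taken off FBtr0073970 (0.962) and FBtr0087478 (0.955). Among the 16 transcripts with 1 symbol, alpha-Spec, which encodes a spectrin chain, was the most like kis (0.898), and with the set means taken off Uba1, which encodes a ubiquitin-activating enzyme (0.916), a pair singled out after their values were seen. The other identifiers had no gene symbol in the table used, and no function is given for them.

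Of 63 chromatin genes on the lists of remodellers, deacetylases, heterochromatin proteins, insulator proteins and histones, 4 had a named row: the genes above and His4r, a histone H4 gene. His4r was at 13.18 ± 0.11 in control, 13.04 ± 0.00071 with BEAF and 12.98 ± 0.015 with CP190 knockdown (SD, n = 2 each), and neither difference passed (limma, adjusted p = 0.18 and 0.071). It rose when BEAF or CP190 knockdown was added to CTCF, by 0.40 and 0.37 (limma, adjusted p = 0.0025 and 0.0035). It also rose when CP190 knockdown was added to SuHw, by 0.26 (adjusted p = 0.023). Such calls were common, with 21.9%, 24.4% and 28.4% of all transcripts called in either direction. The His4r interactions were 0.54, 0.57 and 0.45 for BEAF+CTCF, CTCF+CP190 and SuHw+CP190 (adjusted p = 0.0032, 0.0021 and 0.0075). They were of opposite sign to those of kis. Of all transcripts, 28.8%, 27.4% and 29.8% had a called interaction, and in each case more were positive than negative. Across the sets His4r was above control in all 6 second-set groups, by 0.21 to 0.69 (adjusted p between 6.5e-06 and 0.032). Between 27.3% and 30% of all transcripts were called higher in those comparisons. The remaining genes of these lists were not analysed here.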

How the data were processed

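The deposited table holds log2 signals per transcript from 18 Cy3 NimbleGen arrays, 1 column a sample. RMA and Partek are listed, without versions, per the submitters' processing notes, and a joint normalization of all arrays is not stated in the labels. The table has no detection calls, and 2 arrays per group limit the precision. No normalization or filter was added to the deposited values. With limma 3.58.1 (R 4.3.3), lmFit gave a mean per group over the 18 arrays and eBayes a moderated two-sided test (9 residual and 3.68 prior degrees of freedom). Transcripts whose p, after Benjamini-Hochberg adjustment across 16637, was under 0.05 were called. Of 27 comparisons, 4 (second-set arrays with a protein's knockdown against those without) were added after the data were examined. Outside the 27, BEAF+CP190 was set against the mean of its singles, as another setting of the set difference that also sets a double against singles. Neighbours in each gene's observed order of groups were also tested, and some of those pairs are not among the 27. Transcripts of like signal were the 250 below and 250 above in mean control signal. The genes, comparisons and gene lists were chosen with earlier results of these data known. The rule for named transcripts took the 3 genes, per gene the 2 most correlated transcripts over the 9 group means, raw and with set means taken off, and named rows of the lists. The fit was tested on simulated data. A promoter motif search was not run, since no sequences were used here. Same-numbered arrays deviated together in 10 of 36 pairs of groups (correlation over 0.1), with a median correlation of 0.028 and a range of -0.20 to 0.45. Replicate numbers were not taken as pairs in the main fit, and a replicate block was run as another setting.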

Additional observations from a re-analysis of the deposited data

Results flagged for a closer look

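The 3 interactions of kis were set aside for a closer look because the test of the difference itself passed. The change on BEAF depletion was lower with CTCF knockdown than without (log2 interaction -0.61). The change on CP190 depletion was lower with CTCF knockdown (-0.54) and with SuHw knockdown (-0.31) than without. In each, the effect without the other knockdown comes from the first array set and the effect with it from the second, and the part of the sets was not tested. Groups of 2 arrays are too small for a test of single outlying arrays.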

How the results depend on the processing

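Leaving aside the averages added after the data were examined and the comparisons of doubles with each other, over 57 results of kis, HDAC3 and SuUR and 813 values under other settings, 765 kept their side of the threshold, 44 lost a call, 4 gained one and 0 called results changed direction. The replicate block changed none of its 114 values: kis in BEAF against control stayed at 0.47 under it. In the additive model with a set term, kis lost its calls against control at 0.17 (CTCF), 0.10 (SuHw), 0.19 (BEAF+CP190), 0.20 (CTCF+CP190), 0.33 (BEAF+CTCF) and 0.13 (SuHw+CP190), HDAC3 at 0.16 (CTCF) and 0.24 (BEAF+CTCF), and SuUR at -0.18, -0.16, -0.14 and -0.11 in the doubles and at -0.086 for the set difference. With only the groups compared, fewer samples estimated the spread, and kis lost CTCF against SuHw (0.24) and the SuHw+CP190 interaction (-0.31), and SuUR lost SuHw+CP190 against control (-0.18, and -0.16 with quantile normalization). With arrays centred on their medians HDAC3 gained BEAF (0.17) and CP190 (0.18) against control. Other causes were not tested.

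Leaving out 1 array moved calls in these ranges: HDAC3 in BEAF against control 0.072 to 0.20, kis in CTCF+CP190 against CTCF -0.25 to -0.21 and in CTCF against SuHw 0.21 to 0.28, HDAC3 in CTCF against control 0.12 to 0.21 and in BEAF+CTCF against control 0.17 to 0.22, SuUR against control -0.19 to -0.0064 (SuHw), -0.27 to -0.21 (BEAF+CP190), -0.30 to -0.20 (CTCF+CP190), -0.23 to -0.16 (BEAF+CTCF) and -0.21 to -0.14 (SuHw+CP190), the kis SuHw+CP190 interaction -0.35 to -0.26, and the kis second-set F from 2.40 to 5.21. The kis rises after BEAF and CP190 knockdown kept their calls in all 12 settings each, at 0.41 to 0.53 and 0.29 to 0.34.

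Counts of all called transcripts moved by over 1.5 times in some settings. Leaving out 1 array took BEAF against control from 6943 to as few as 4316, BEAF+CTCF against CTCF from 3642 to 2016, CTCF+CP190 against CTCF from 4065 to 2325 and CTCF against SuHw from 2787 to 1377. With only the groups compared, BEAF against CP190 went from 1800 to 572, SuHw+CP190 against SuHw from 4721 to 1831 and CTCF against SuHw to 1286. The lowest counts between doubles, in the order of the report, were 1070, 474, 966, 317, 561 and 1887, from 2038, 892, 1794, 847, 1280 and 3259, and the SuHw average fell from 4525 to 2893. The additive model called 745 for CTCF and 417 for SuHw against control, from 9133 and 9769, 4529, 2414, 2296 and 1389 for the doubles, from 9306, 9130, 8680 and 8850, and 6585 for the set difference, from 11724. Other bands of like signal moved 12 of 243 percentiles of the comparisons by over 5 points. The BEAF change of HDAC3, at 64 with 100 transcripts, was among them.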
